A study of Homo sapiens with 18 samples.

Results

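The genes described here code for the basement membrane proteins of HEK293doxERN2 cells, a human embryonic kidney line that carries a Flag-tagged ERN2 transgene under a doxycycline switch. They are the 10 genes COL4A1, COL4A2, COL4A5, COL4A6, LAMB1, LAMC1, NID1, NID2, HSPG2 and AGRN, chosen by name from the 25435 rows of the table of gene counts. Earlier results of these data were known when they were chosen. ERN2, also called IRE1β, is an endoplasmic reticulum (ER) stress sensor whose RNase activity splices XBP1 mRNA. RNA-Seq was performed on 6 groups of 3 libraries each. Cells without doxycycline and with vehicle (DMSO) are called uninduced vehicle cells. In the other groups ERN2 was induced over 24 hours with doxycycline at 10 or 100 ng/mL, thapsigargin was added at 200 nM for 3 hours, or both were done. Thapsigargin blocks the calcium pump of the ER and causes ER stress. All groups are the same transgenic line, and no group without the transgene was used here, so that effects of doxycycline itself and of the ERN2 it induces cannot be told apart. Nothing in the labels says that the 3 libraries of a group came from separate cultures, and p-values measure only the spread between these libraries.

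Basement membranes are thin sheets of extracellular matrix on which epithelial, endothelial and muscle cells rest. Collagen IV chains form trimers that build one network, laminin trimers of an alpha, a beta and a gamma chain build a second, nidogens link both, and the heparan sulfate proteoglycans perlecan and agrin bind to them. These proteins are made at the ER, where their chains fold, are modified and assemble before export. ERN2 belongs to the IRE1 family, whose RNase can also cut mRNAs at the ER membrane.

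The collagen IV genes lie in the genome as head-to-head pairs. COL4A1 and COL4A2, which code for the alpha 1 and alpha 2 chains of the most widespread collagen IV trimer, start 126 bases apart on chromosome 13 and are read in opposite directions, and COL4A5 and COL4A6 start 379 bases apart on chromosome X. In GENCODE 29 (GRCh38) COL4A1 covers chr13:110148963-110307233 on the minus strand and COL4A2 covers chr13:110305812-110513209 on the plus strand. COL4A5 covers chrX:108439844-108697545 (plus) and COL4A6 covers chrX:108155607-108439497 (minus). LAMC1 (chr1:183023460-183145592, plus) and NID1 (chr1:235975830-236065162, minus) lie far from each other on chromosome 1. LAMB1 lies at chr7:107923799-108003255 (minus), NID2 at chr14:52004803-52069228 (minus), HSPG2 at chr1:21822245-21937297 (minus) and AGRN at chr1:1020123-1056118 (plus).

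Promoter sequence was available from RefSeq (GRCh38.p14) for 9 of the 10 members, all but AGRN. The bases before the transcription start are shown for COL4A5, the collagen IV gene with the smallest fall at 100 ng/mL doxycycline, and for LAMC1 and NID1, which had larger falls. Capitals mark matches, on either strand, to CCAAT (the CCAAT box) or GGGCGG (the GC box). Each is written 5′ to 3′ on the strand of its gene. For NID1 the 72 bases next to the start, which are exon in GENCODE 29, were left out.
COL4A5, chrX:108439588-108439837, plus strand: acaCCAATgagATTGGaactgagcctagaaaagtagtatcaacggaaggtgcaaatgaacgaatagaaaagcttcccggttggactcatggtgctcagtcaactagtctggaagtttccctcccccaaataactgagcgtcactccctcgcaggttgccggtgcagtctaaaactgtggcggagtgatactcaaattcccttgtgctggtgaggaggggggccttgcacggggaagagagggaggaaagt
LAMC1, chr1:183023170-183023419, plus strand: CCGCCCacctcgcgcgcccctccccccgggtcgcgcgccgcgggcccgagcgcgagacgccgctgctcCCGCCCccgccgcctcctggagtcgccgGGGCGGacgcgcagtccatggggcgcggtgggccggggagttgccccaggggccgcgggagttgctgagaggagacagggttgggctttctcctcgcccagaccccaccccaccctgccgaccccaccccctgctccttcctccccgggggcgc
NID1, chr1:236065163-236065340, minus strand: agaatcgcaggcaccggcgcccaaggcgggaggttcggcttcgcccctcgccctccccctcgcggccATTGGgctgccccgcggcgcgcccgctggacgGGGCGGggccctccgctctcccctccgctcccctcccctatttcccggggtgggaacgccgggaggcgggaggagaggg
The COL4A5 stretch had 2 CCAAT matches on opposite strands and no GC box, whereas LAMC1 had 3 GC boxes and no CCAAT, and NID1 had 1 of each. The 126 bases between COL4A1 and COL4A2 (chr13:110307158-110307283), of which 124 are exon in GENCODE 29 and which are therefore not printed, held 1 CCAAT box and 1 GC box and were 80.2% G or C.

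Windows from 250 bases before to 50 bases after the start were searched for 7 motifs. The 9 members had 10 windows, because COL4A6 has a pair of starts. The windows of COL4A1 and COL4A2 overlap, as do that of COL4A5 and the nearer window of COL4A6. The CCAAT matches of COL4A5 lie in that overlap, so shared matches were counted for both windows. GC boxes were found in 8 of the 10 windows, against 45.0% of all 35116 windows, and CCAAT boxes in 6 of 10, against 34.6%. The COL4A6 window nearer to COL4A5 held CCAAT boxes and no GC box, and its other window the reverse. HSPG2 had 10 GC boxes, LAMB1 4 and LAMC1 3, all without CCAAT. Their log2 fold changes at 100 against 0 ng/mL doxycycline with vehicle were -1.24, -1.27 and -2.35. A link between these motifs and the size of the fall was not tested. No member had TATAAA (11.5% of all windows), TGACGTGG (the core of the UPR element, 0.729%), TGACGTCA (the cAMP response element, 1.85%) or TTGCATCA (the core of the C/EBP-ATF element, 0.866%). None had the ER stress response element either, searched as CCAAT, 9 bases of any kind and CCACG, which 0.0769% of all windows held and which contains a CCAAT box. In the longest coding transcripts, CTGCAG, a sequence typical of sites that IRE1 enzymes cut, occurred in 9 of 10 members and in 81.6% of 19702 coding genes. COL4A1 had none in 6616 bases, COL4A2 had 2 in 6494, LAMC1 had 9 in 7889 and HSPG2 had 17 in 14327. These counts describe letters only, without regard to RNA folding.

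The libraries held 14876416 to 24652240 counts. ERN2 itself was at 6.57 to 9.10 CPM (counts made comparable between libraries by TMM) in uninduced vehicle cells, 22.5 to 55.9 CPM at 10 ng/mL and 249 to 309 CPM at 100 ng/mL, each with vehicle, in the order of the labelled doses. Beside thapsigargin it was at 10.4 to 14.2, 32.1 to 112 and 175 to 272 CPM. The labels' extraction text speaks of colon crypt cells, so marker genes were examined. All 7 markers listed for the HEK293 line were above 1 CPM in each group, among them VIM at 1841 CPM and PAX2 at 3.28 CPM in uninduced vehicle cells. Of 8 colon epithelium markers, 6 stayed under 1 CPM in every library, and CDX1 and CDH17 had 0 counts in uninduced vehicle cells. The other colon markers, LGR5 and CDX2, were at 29.6 and 4.34 CPM there, both above PAX2. Under 1 CPM in every library were also 3 of 5 endothelial and 3 of 4 leukocyte markers. The rest of these were the endothelial KDR and VWF, at 3.88 and 0.842 CPM in uninduced vehicle cells, and the leukocyte marker CD68 at 12.0 CPM. Replicates differed by 7.33 to 63.8 times the variance of pure counting (chi-square per degree of freedom), so all were counted as separate.

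In uninduced vehicle cells the members spanned a wide range of levels. Per kilobase of annotated exon, NID1 was highest at 93.5 ± 2.12 CPM per kb (mean ± SD, n = 3). LAMC1 followed at 59.0 ± 1.83 and COL4A2 at 32.5 ± 1.74 CPM per kb, so that the top of the order held a nidogen, a laminin and a collagen IV gene. AGRN (24.8 ± 1.76) and COL4A1 (23.3 ± 1.80) came next and did not differ beyond the spread of their libraries. LAMB1 was at 19.6 ± 0.351 CPM per kb. The less widespread chains COL4A5 (10.2 ± 0.773) and COL4A6 (9.44 ± 0.698) also overlapped. NID2 (3.73 ± 0.169) and HSPG2 (1.77 ± 0.110), the genes of nidogen-2 and perlecan, were lowest. All other neighbours in this order had ranges that did not overlap. The lengths are those of all exons of a gene joined, and 1915 of the 6392 exon bases of NID2 and 2121 of the 18104 of HSPG2 are shared with genes on the opposite strand, RTRAF and LDLRAD2. The strand setting of the counting was not stated, so the levels of NID2 and HSPG2 are less certain than those of the others.

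The first comparison set cells at 100 ng/mL doxycycline, in which ERN2 is induced, beside uninduced cells, both without added ER stress. All 10 members fell, and in each gene the 3 induced libraries lay below the 3 uninduced ones, a separation that 16.1% of all tested genes showed. Among all 14444 genes tested, 7.49% were called lower and 0.838% higher at this dose (edgeR's quasi-likelihood test, Benjamini-Hochberg adjusted p under 0.01). The members' median log2 fold change was -1.42, against -0.0068 over all genes. Their summed level fell from 2706 ± 41.7 to 756 ± 46.6 CPM, that is to 27.9% of the uninduced level. In such bulk RNA, fewer cells expressing a gene and less RNA per cell cannot be told apart.

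COL4A1 had the largest fall. It was at 320.2, 337 and 372 CPM in the uninduced vehicle libraries and at 42.9, 51.8 and 45.2 CPM at 100 ng/mL. The log2 fold change was -2.92 (SE 0.12, adjusted p = 6.52e-08). Its partner COL4A2 was at 653, 589.8 and 641 CPM and then at 150.2, 188 and 165 CPM, a log2 fold change of -1.95 (SE 0.11, adjusted p = 3.03e-07). Both genes were separated without overlap, and the intervals of their fold changes did not meet, at -3.18 to -2.66 for COL4A1 and -2.20 to -1.70 for COL4A2 (95%). COL4A5 and COL4A6 code for chains of a trimer found in fewer tissues, kidney among them. COL4A6 went from 94.9, 85.4 and 82.5 CPM to 31.0, 30.2 and 30.2 CPM, the tightest induced group of any member, with a log2 fold change of -1.57 (SE 0.11, adjusted p = 1.33e-06). COL4A5 went from 132, 118 and 114 to 69.3, 71.6 and 62.4 CPM, which was the smallest fall of the 10 at -0.88 (SE 0.11, adjusted p = 0.000126).

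The laminin chains fell unequally. LAMC1, which codes for gamma 1, the gamma chain shared by most laminins, was at 481, 494 and 512 CPM and fell to 99.2, 94.9 and 106 CPM, with a log2 fold change of -2.35 (SE 0.10, adjusted p = 6.52e-08). LAMB1, which codes for the beta 1 chain, was at 159.9, 162 and 156 CPM and fell to 60.1, 69.1 and 74.9 CPM, with a log2 fold change of -1.27 (SE 0.11, adjusted p = 7.33e-06). Neither gene's groups overlapped. NID1 codes for nidogen-1, which binds the laminin gamma 1 chain and collagen IV. It was at 551, 559 and 535 CPM and fell to 124, 113 and 115 CPM, a log2 fold change of -2.27 (SE 0.098, adjusted p = 6.52e-08). NID2, the less abundant nidogen, went from 25.1, 23.5 and 23.0 to 9.96, 10.3 and 10.9 CPM, with -1.24 (SE 0.13, adjusted p = 2.9e-05).

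The proteoglycan genes fell by about as much as LAMB1 and NID2. HSPG2 codes for perlecan and was at 34.2, 30.3 and 31.5 CPM, then at 13.0, 16.6 and 12.1 CPM, with a log2 fold change of -1.24 (SE 0.15, adjusted p = 8.45e-05). AGRN codes for agrin, which also clusters acetylcholine receptors at the nerve-muscle junction. It was at 288, 259.7 and 252 CPM and then at 118, 163 and 121 CPM, with -1.03 (SE 0.14, adjusted p = 0.000174). The induced AGRN libraries spread more widely than those of COL4A6, LAMC1 or NID1, and still did not reach the uninduced range. All 10 calls were also made with each of the 6 libraries left out in turn. The HEK293 markers summed to 2864 to 3045 CPM in the uninduced and 2939 to 3697 CPM in the induced libraries. Their means were higher in induced cells for VIM (1841 and then 2077 CPM), KRT8 (456 and 617) and KRT18 (214 and 241). They were lower for CDH2 (323 and then 178 CPM), NEFL (113 and 92.1), NEFM (27.6 and 17.1) and PAX2 (3.28 and 2.93). The 6 fibroblast markers, of which COL1A1 and COL3A1 are collagen genes themselves, summed to 27.1 to 34.0 and 19.1 to 26.1 CPM. COL1A1 made up most of that sum, at 22.4 ± 2.98 CPM uninduced and 19.6 ± 3.66 CPM induced. Among the lower fibroblast markers COL3A1 moved with the members, at 5.60 ± 0.492 and then 1.19 ± 0.268 CPM. So did PDGFRA, at 1.60 ± 0.306 and then 0.727 ± 0.121 CPM, and LUM, at 0.873 ± 0.334 and then 0.193 ± 0.183 CPM. LUM rested on 10 to 20 and then 0 to 7 reads per library. PDGFRB was at 0.190 ± 0.166 and then 0.158 ± 0.139 CPM, and DCN had at most 1 count in an uninduced library. The part of these shifts in the result was not tested.

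**Figure D1:**
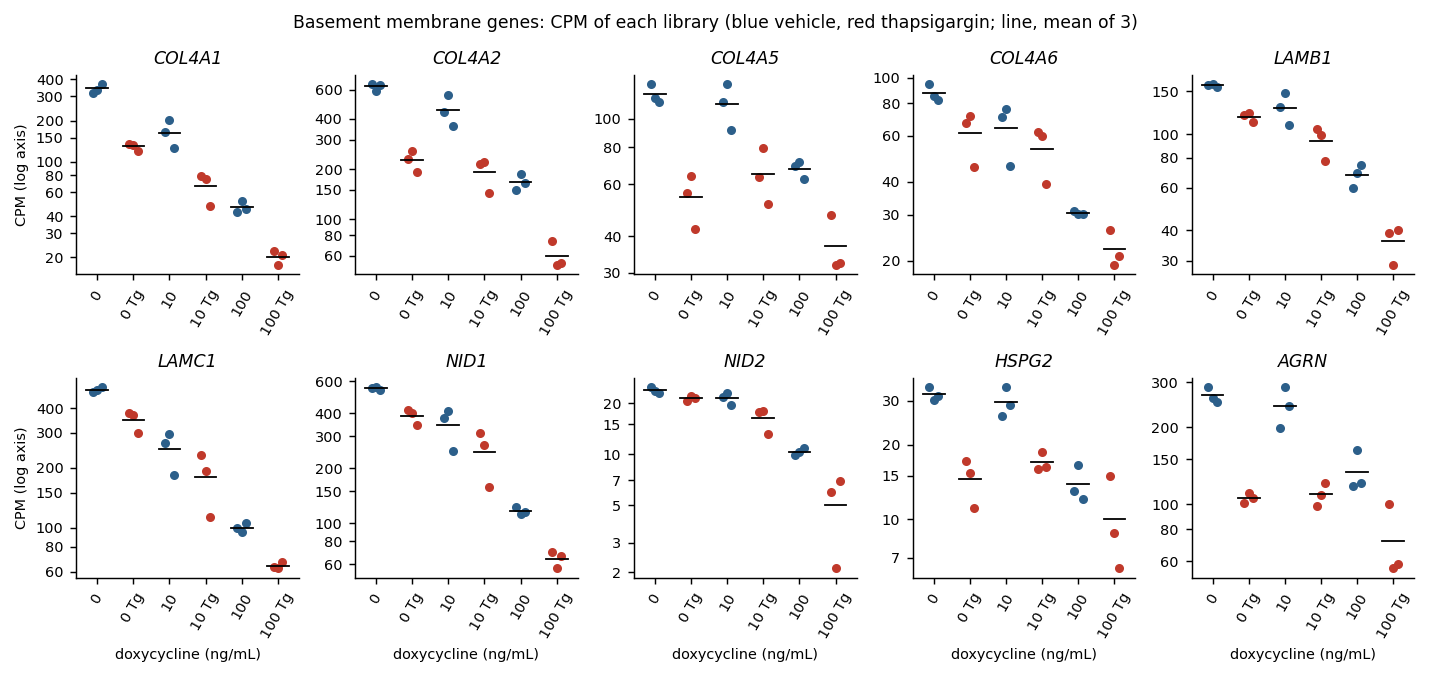
CPM of the 10 members in each library (log axis), by dose of doxycycline in ng/mL, with vehicle in blue and thapsigargin (Tg) in red, and a line at the mean of 3 libraries. All blue points at 100 ng/mL lie below those at 0 ng/mL, and COL4A1 runs from 372 CPM at most in uninduced vehicle cells to 17.5 CPM at least with both treatments.

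The lower dose gave a graded picture. At 10 ng/mL with vehicle all 10 log2 fold changes were negative, but only COL4A1 and LAMC1 fell at the threshold. COL4A1 was at 164, 200.3 and 127 CPM, a log2 fold change of -1.07 (SE 0.14, adjusted p = 0.00575), and LAMC1 at 268, 296 and 183 CPM, with -0.998 (SE 0.15, adjusted p = 0.00882). The libraries of 6 members lay wholly below the uninduced ones (COL4A1, COL4A2, COL4A6, LAMB1, LAMC1 and NID1), a separation that 15.3% of all tested genes showed, while those of COL4A5, NID2, HSPG2 and AGRN overlapped. The 2 calls stood against 0.0552% of all 14497 genes called lower. For NID1, at 378, 410.1 and 249 CPM, the log2 fold change was -0.67 (SE 0.15, adjusted p = 0.0646), and for AGRN it was -0.14 with a 95% interval of -0.42 to 0.13. Both calls were lost when any one of the 3 uninduced libraries or replicate 2 at 10 ng/mL was left out, and when all 6 groups were fitted together. In each of those fits with a library left out 0% of all genes were called, and 0.02% with all 6 groups. With no filter on low counts 4 members were called, against 2.36% of all genes called lower.

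Between the doses the fall went on. From 10 to 100 ng/mL with vehicle 9 members fell, all but COL4A5, against 2.43% of all 14549 genes, and no member's groups overlapped, as in 12.9% of all tested genes in this direction. The log2 fold changes ran from -1.84 for COL4A1 to -0.76 for COL4A5 (adjusted p = 0.0126). The number of calls depended on single libraries. It was 1 without replicate 2 at 10 ng/mL, 3 without replicate 1 at 100 ng/mL and 0 without replicate 3 at 100 ng/mL. The share of all genes called moved with it, to 0.0611%, 0.143% and 0%. All 10 members kept an unadjusted p under 0.05 by edgeR in each of these fits.

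Libraries at 10 ng/mL were not alike. Replicate 3 with vehicle had the highest ERN2 of its group, 55.9 CPM beside 22.5 and 27.1, and the lowest summed level of the members, 1457 CPM beside 1809.6 and 2164. The same held with thapsigargin, where replicate 3 had 112 CPM of ERN2 beside 32.1 and 53.9, and 780.3 CPM of the members beside 1196 and 1141. At 100 ng/mL with thapsigargin the order was different, and replicate 1 with the highest ERN2, 272 CPM beside 175 and 175, also had the highest sum, 462 CPM beside 336 and 374. The part of ERN2 dose in these differences between replicates was not tested. Without replicate 3 at 10 ng/mL, the count of members called was the same in each comparison that used it. The members were not always the same. At 100 against 10 ng/mL with vehicle, COL4A5 was then called and AGRN was not.

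Thapsigargin was then compared with vehicle in uninduced cells after 3 hours. No other stressor was used, so ER stress and other effects of the blocked calcium pump cannot be told apart. Thapsigargin lowered 8 members, against 4.74% of 14397 genes called lower and 6.45% called higher. The summed level of all 10 fell to 1468 ± 149 CPM, 54.2% of that with vehicle. The order of the members was not that seen with doxycycline. COL4A2 fell most, to 229.5, 258 and 191 CPM, with a log2 fold change of -1.46 (SE 0.12, adjusted p = 4.41e-06). COL4A1 fell to 135, 133 and 120.1 CPM, with -1.39 (SE 0.11, adjusted p = 1.9e-06). AGRN was at 101, 110.3 and 106 CPM, with -1.32 (SE 0.10, adjusted p = 1.97e-06). All 3 were far below the vehicle range.

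COL4A5 and HSPG2 belonged to the same strongly lowered group. COL4A5 was at 56.0, 63.9 and 42.4 CPM, a log2 fold change of -1.15 (SE 0.14, adjusted p = 0.000132), and HSPG2 at 17.2, 15.4 and 11.1 CPM, with -1.13 (SE 0.16, adjusted p = 0.000348). The laminin chains and nidogen-1 fell less. LAMC1 was at 378, 368 and 299.7 CPM (-0.50, adjusted p = 0.00625), NID1 at 417, 399.9 and 347 CPM (-0.49, adjusted p = 0.0047) and LAMB1 at 119.9, 122 and 112 CPM (-0.42, adjusted p = 0.00717). COL4A6 missed the threshold at -0.50 (SE 0.15, adjusted p = 0.03), as did NID2 at -0.14 (SE 0.12, adjusted p = 0.422), whose 95% interval was -0.40 to 0.11. Libraries of all 10 members lay below those with vehicle, as did those of 20% of all tested genes. Leaving out any one vehicle library or replicate 2 with thapsigargin gave 5 calls, as did the fit of all 6 groups. That last fit called 1273 of all genes, beside 1611 in the main fit. The fibroblast markers summed to 14.7 to 19.0 CPM with thapsigargin beside 27.1 to 34.0 CPM with vehicle, and the HEK293 markers to 2312 to 2694 beside 2864 to 3045 CPM, and their part in the result was not tested.

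**Figure D2:**
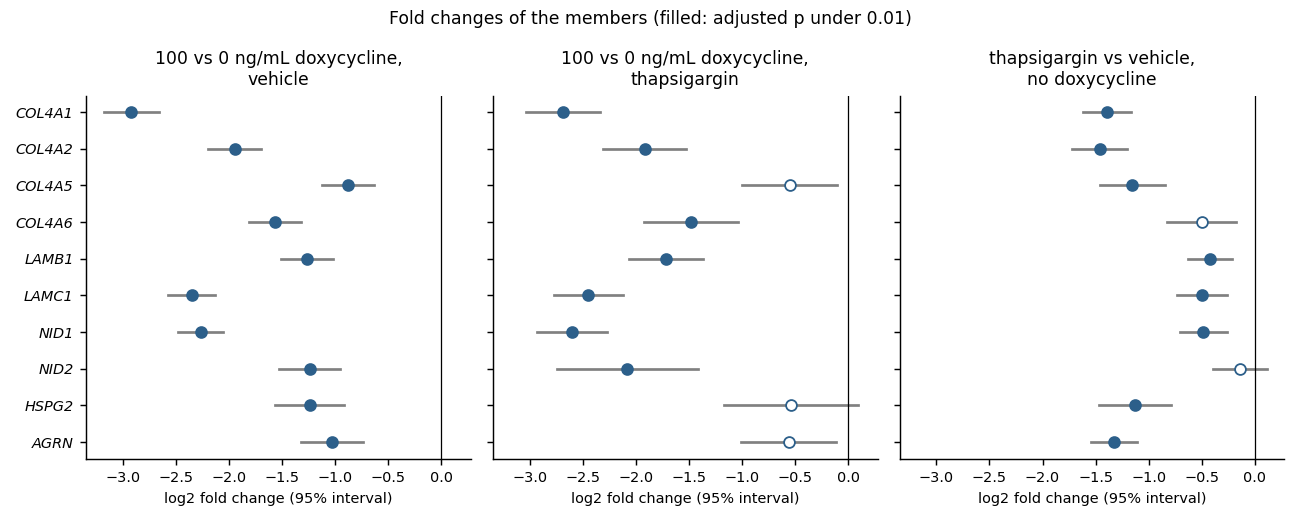
Log2 fold changes of the 10 members with 95% intervals for 100 against 0 ng/mL doxycycline with vehicle, the same with thapsigargin, and thapsigargin against vehicle without doxycycline, filled where the adjusted p is under 0.01. COL4A1, LAMC1 and NID1 lie furthest to the left under doxycycline, whereas COL4A2, COL4A1 and AGRN do under thapsigargin alone.

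In cells induced with doxycycline, thapsigargin lowered some members from a lower starting level. At 10 ng/mL it lowered COL4A1 (-1.29, SE 0.21, adjusted p = 0.00862), COL4A2 (-1.24, SE 0.19, adjusted p = 0.00675) and AGRN (-1.15, SE 0.15, adjusted p = 0.00229), 3 members against 0.294% of 14607 genes. No member was called without replicate 2 of either group, and the shares of all genes called in those fits are not given here. At 100 ng/mL it lowered COL4A1 (-1.18, SE 0.16, adjusted p = 0.00889) and COL4A2 (-1.45, SE 0.17, adjusted p = 0.00475), 2 members against 0.0208% of 14427 genes. All 10 values were negative there, and 9 members, all but HSPG2, had groups that did not overlap, as did 15.1% of all tested genes in the same direction. This last count was unsteady, with 0 calls without any one of the vehicle libraries or replicate 2 or 3 with thapsigargin, 9 without replicate 1 with thapsigargin, and 7 by DESeq2. Calls over all genes moved with it, to 7.84% called lower without that replicate 1 and 3.29% by DESeq2.

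Members were also lower with doxycycline in cells under thapsigargin. From 0 to 100 ng/mL 7 fell, against 9% of 14358 genes, with a median over the 10 of -1.82 beside 0.044 over all genes. NID1 went from 417, 399.9 and 347 to 70.0, 56.8 and 66.0 CPM, a log2 fold change of -2.60 (SE 0.15, adjusted p = 7.64e-07). COL4A1 went from 135, 133 and 120.1 to 22.1, 17.5 and 21.0 CPM, with -2.68 (SE 0.16, adjusted p = 7.64e-07). LAMC1 ended at 63.3, 62.2 and 66.8 CPM, with -2.45 (SE 0.15, adjusted p = 1.05e-06). The groups of these genes lay far apart. NID2 fell to 6.00, 2.11 and 6.97 CPM, with -2.08 (SE 0.30, adjusted p = 0.000419), and its lowest library rests on 30 reads. COL4A2 (-1.92), LAMB1 (-1.71) and COL4A6 (-1.48) were the other calls.

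The members that thapsigargin alone had lowered strongly, apart from the COL4A1 and COL4A2 pair, did not pass in this contrast with all 6 libraries. AGRN gave -0.56 (SE 0.20, adjusted p = 0.0692), COL4A5 -0.55 (SE 0.21, adjusted p = 0.0756) and HSPG2 -0.54 (SE 0.29, adjusted p = 0.206), with 95% intervals of -1.01 to -0.12, -1.001 to -0.10 and -1.17 to 0.092. AGRN was at 101, 110.3 and 106 CPM before and 100.4, 56.1 and 58.6 CPM after, separate by a narrow margin, while the groups of COL4A5 and HSPG2 overlapped. That these genes did not pass rested on 1 library. Without replicate 1 at 100 ng/mL all 10 members were called, against 13.7% of all genes called lower, with AGRN at -0.87 (adjusted p = 8.31e-05), COL4A5 at -0.75 (adjusted p = 0.00199) and HSPG2 at -0.94 (adjusted p = 0.00274). From 10 to 100 ng/mL under thapsigargin the same 7 members fell as from 0 to 100 ng/mL, against 5.32% of 14493 genes, with log2 fold changes from -1.93 for NID1 to -1.27 for COL4A6. That count was 4 without replicate 2 at 10 ng/mL and 0 without replicate 2 at 100 ng/mL.

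From 0 to 10 ng/mL under thapsigargin no member passed, as did 0% of 14509 genes by edgeR, although 5 members had an unadjusted p under 0.05 and DESeq2 called 2, COL4A1 and LAMC1, against 0.255% of genes called lower. COL4A1 was at 78.6, 75.3 and 47.2 CPM, a log2 fold change of -0.96 (SE 0.18, adjusted p = 0.292), and LAMC1 at 231, 192 and 113 CPM, with -0.97 (SE 0.23, adjusted p = 0.483). Libraries of COL4A1, LAMB1, LAMC1, NID1 and NID2 lay wholly below those at 0 ng/mL, a separation seen in 5.4% of all tested genes. In these groups deviations of same-numbered libraries correlated (lowest r = 0.533). That pattern was read from these same counts, and no label says that the numbers pair libraries. With the replicate block, which assumes such pairs, 5 members were called, against 2.53% of all genes called lower. They were COL4A1 (-0.99, adjusted p = 1.99e-07), LAMC1 (-1.02, adjusted p = 1.12e-07), NID1 (-0.72, adjusted p = 8.45e-06), LAMB1 (-0.35, adjusted p = 0.00174) and COL4A2 (-0.26, adjusted p = 0.00803).

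With both treatments at their full dose the members reached their lowest levels, a summed 391 ± 64.9 CPM or 14.4% of uninduced vehicle cells. COL4A1 stood at 5.89% of its uninduced vehicle mean, a 17.0-fold fall. COL4A2 stood at 9.58%, NID1 at 11.7% and LAMC1 at 12.9%. NID2 (21.1%), LAMB1 (22.6%) and COL4A6 (25.2%) came next. AGRN (26.9%), COL4A5 (30.5%) and HSPG2 (31.3%) kept the most. The order of levels per kb changed with it, and COL4A1 moved from rank 5 of the 10 in uninduced vehicle cells to rank 8.

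Whether the response to thapsigargin itself differed with doxycycline was tested as an interaction in 12 libraries. No member passed at either dose by edgeR or DESeq2. At 10 ng/mL 0% of 14857 genes and 0 members had passed, and no member had an unadjusted p under 0.05. At 100 ng/mL 0.0406% of 14768 genes passed, and 2 members had an unadjusted p under 0.05, LAMB1 (-0.39, 95% interval -0.77 to -0.0052) and NID2 (-0.78, -1.52 to -0.025). A negative value means a larger fall under thapsigargin at 100 ng/mL than without doxycycline. Of the others, HSPG2 lay furthest the other way at 0.76 (-0.00072 to 1.53), followed by AGRN at 0.53 (-0.03 to 1.09). For COL4A1 the interval was -0.057 to 0.65 and for COL4A2 -0.35 to 0.53. Differences of the response within these intervals remain compatible with the data from 3 libraries per group.

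The proportions between partner chains were examined next. Ratios of CPM between 5 pairs of members were compared within each library, where scaling between libraries cancels, in 9 comparisons each. With 3 libraries against 3 an exact two-sided permutation test cannot give a p under 0.1, which 27 of the 45 tests reached, and the smallest adjusted p was 0.167. The test could therefore call no ratio in this design, whatever the values, and the ratios are given as a description of these libraries. The ratio of COL4A1 to COL4A2 was 0.490, 0.571 and 0.581 in uninduced vehicle cells, 0.372, 0.358 and 0.350 at 10 ng/mL and 0.286, 0.276 and 0.274 at 100 ng/mL. With vehicle it was thus ordered by dose without overlap. Under thapsigargin without doxycycline it was 0.590, 0.516 and 0.630, which overlapped the vehicle range. Under thapsigargin it was 0.328 to 0.368 at 10 ng/mL and 0.302 to 0.385 at 100 ng/mL, and these overlapped each other. At 100 ng/mL the ratios with thapsigargin all lay above those with vehicle.

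For COL4A5 to COL4A6 the values with each treatment lay on opposite sides of the uninduced vehicle range. It was 1.39, 1.38 and 1.39 in uninduced vehicle cells and 2.24, 2.37 and 2.07 at 100 ng/mL, a difference of 0.68 in log2. With thapsigargin alone it was 0.837, 0.895 and 0.928, a difference of -0.65. None of the 9 comparisons of this ratio had overlapping groups. The ratio of LAMC1 to LAMB1 was 3.01, 3.06 and 3.28 in uninduced vehicle cells, 1.65, 1.37 and 1.41 at 100 ng/mL and 3.16, 3.02 and 2.68 with thapsigargin alone, the last overlapping the first.

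The ratio of NID1 to NID2 was 22, 23.8 and 23.3 in uninduced vehicle cells and 12.4, 11.0 and 10.6 at 100 ng/mL. The ratio of AGRN to HSPG2 differed least between these groups, from 8.41, 8.56 and 8.00 to 9.11, 9.86 and 9.96. With both treatments at full dose the NID1 to NID2 ratio scattered from 9.47 to 26.9, which spans the values of every other group.

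**Figure D3:**
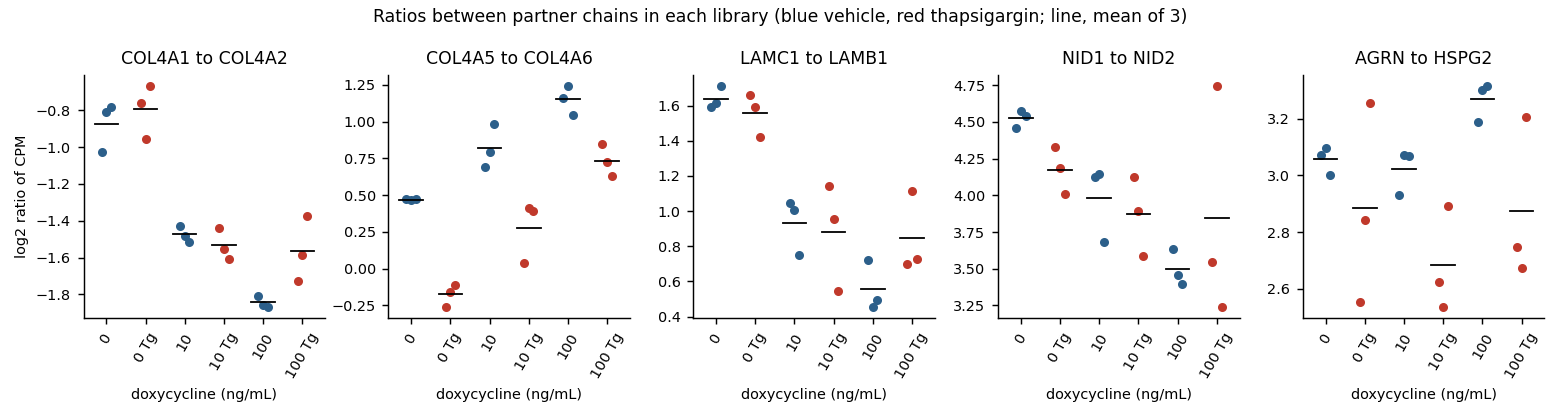
Log2 ratio of CPM between partner genes in each library, by dose of doxycycline in ng/mL, with vehicle in blue and thapsigargin (Tg) in red, and a line at the mean of 3 libraries. COL4A1 to COL4A2 and LAMC1 to LAMB1 lie lower with doxycycline and overlap between vehicle and thapsigargin at 0 ng/mL, whereas COL4A5 to COL4A6 lies higher with doxycycline and lower with thapsigargin at each dose.

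Other genes of the matrix were examined as lists drawn up by name. Under induction at 100 ng/mL with vehicle 7 of 11 tested other collagen IV and laminin chains fell (median log2 fold change -1.22), as did 12 of 17 other basement membrane proteins (-1.32), 9 of 13 receptors (-0.90), 6 of 10 matrix proteases and inhibitors (-1.41) and 10 of 14 interstitial matrix genes (-1.34). In these lists no gene rose at the threshold. The background was 7.49% lower. The smallest adjusted p of each list belonged to LAMA1, the laminin alpha 1 chain, with a log2 fold change of -1.61 (SE 0.12, adjusted p = 2.28e-06), FBLN1, fibulin-1, with -2.59 (SE 0.12, adjusted p = 1.06e-07), and ITGB1, the integrin beta 1 chain that pairs with most laminin and collagen binding alpha chains, with -2.85 (SE 0.16, adjusted p = 2.27e-07). For the protease cathepsin B (CTSB) it was -1.79 (SE 0.11, adjusted p = 4.29e-07), and for the fibrillar collagen gene COL5A1 -2.03 (SE 0.10, adjusted p = 1.31e-07). Values above 0 with the smallest adjusted p in their lists were those of SDC4, a syndecan, at 0.42 (SE 0.12, adjusted p = 0.0366) and COL5A2 at 0.34 (SE 0.19, adjusted p = 0.263), which did not pass.

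In this comparison, genes that build these proteins had medians nearer to 0. Of 14 tested genes of collagen modification, folding and export in the ER, 5 fell (median -0.38), with the lysyl hydroxylase PLOD3 at -1.43 (SE 0.13, adjusted p = 7.36e-06). Of 14 genes of heparan sulfate synthesis 6 fell (median -0.52), with the sulfotransferase HS6ST2 at -0.83 (SE 0.14, adjusted p = 0.00107), while NDST2 was at 0.019 (SE 0.12, adjusted p = 0.928). Among 16 adaptors that link integrins to actin inside the cell, proteins that do not enter the ER, 1 fell, the actin crosslinker FLNA at -1.06 (SE 0.12, adjusted p = 4.99e-05), and the median was 0.033. The paxillin gene PXN was at 0.24 (SE 0.10, adjusted p = 0.143). From 10 to 100 ng/mL, the ER assembly and heparan sulfate medians were -0.54 and -0.53 with vehicle and -1.01 and -0.96 with thapsigargin. With thapsigargin 10 of 14 tested ER assembly genes and 8 of 14 heparan sulfate genes fell, against 5.32% of all genes. Of the members 7 of 10 fell (median -1.43), and of proteases and inhibitors 6 of 10 (-1.46). So did 8 of 16 other basement membrane proteins (-1.16) and 10 of 14 interstitial matrix genes (-1.15). Fewer fell among other collagen IV and laminin chains (4 of 11, -0.84), receptors (3 of 13, -0.89) and adaptors (1 of 16, 0.011). Whether these lists differ from the members was not tested.

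With thapsigargin alone the lists stood differently. Of the members 8 of 10 had fallen (median -0.81), beside 5 of 11 other chains (-0.58), 7 of 13 receptors (-0.51), 3 of 17 other basement membrane proteins (-0.25), 3 of 10 proteases and inhibitors (-0.29), 3 of 14 interstitial matrix genes (-0.27), 1 of 14 heparan sulfate genes (-0.21) and 0 of 16 adaptors (-0.030). In the ER assembly list 1 of 15 rose and 0 fell. These stood beside 4.74% lower and 6.45% higher over all genes.

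**Figure D4:**
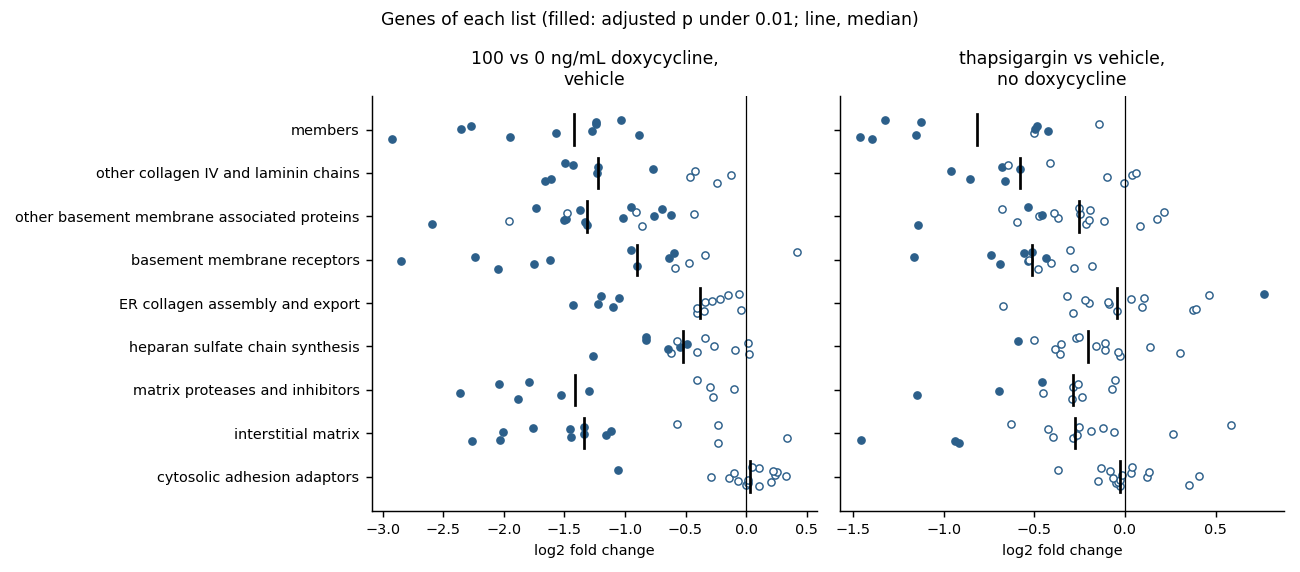
Log2 fold changes of the tested genes of each list for 100 against 0 ng/mL doxycycline with vehicle and for thapsigargin against vehicle without doxycycline, filled where the adjusted p is under 0.01, with a line at the list's median. Under doxycycline the members' median is -1.42, those of the ER assembly and heparan sulfate lists are -0.38 and -0.52, and that of the cytosolic adaptors is 0.033.

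Genes with a profile most like that of the COL4A1 and COL4A2 pair were sought among the 10265 genes with a mean of 10 CPM or more. Profiles were log2 group means relative to uninduced vehicle cells over the other 5 groups, and likeness was the root mean square difference. Nearest to the mean profile of COL4A1 and COL4A2 were TMEM19 (0.282 in log2), COL2A1 (0.418) and COL5A1 (0.463). LAMC1 ranked 14th and NID1 16th, and COL4A5 208th.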

How the data were processed

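HEK293doxERN2 cells were profiled by stranded mRNA sequencing in 18 libraries. After alignment with STAR the authors deposited unnormalized counts for each gene symbol, one column per library. The submitters' processing notes name STAR, DESeq2 and hg38, and the versions, annotation and strand setting are not given in the sources used here. No deposited column was left out. Columns were matched to samples by the column number in the labels.

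The members, gene lists and tests were chosen with earlier results of these data known. Named genes were all members, in each other list the smallest adjusted p among positive and among negative log2 fold changes at 100 against 0 ng/mL with vehicle, and the 3 nearest to the mean profile of COL4A1 and COL4A2. The same search for LAMB1 and LAMC1 is not reported here. P3H1 and P3H2 were matched through older symbols.

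Each comparison used only its groups. Genes were kept by filterByExpr (minimum count 10), scaled by TMM and fitted in edgeR 4.0.16 under R 4.3.3 (glmQLFit, then glmQLFTest) at an adjusted p of 0.01. Standard errors are the log2 fold change over the square root of F. CPM were scaled by TMM over all 18 libraries. Tests were checked on simulated data. Replicate numbers were taken to pair libraries only between thapsigargin-treated cells at 0 and 10 ng/mL, where deviations of all same-numbered libraries correlated (lowest r = 0.533) and 3 of 3 fitted their own number best. No label says that they do. The alternatives were DESeq2 1.42.0, RLE size factors, library totals, no filter, all 6 groups in one fit, the replicate block, an adjusted p of 0.05 and leaving out each library. Promoters are from RefSeq (GRCh38.p14), positions from GENCODE 29 (GRCh38).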

Additional observations from a re-analysis of the deposited data

How the results depend on the processing

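At 100 against 0 ng/mL doxycycline, the count of members called stayed at 10 with vehicle under every alternative and ran from 7 to 10 with thapsigargin, and for both interactions it stayed at 0. Other counts moved. At 10 against 0 ng/mL with vehicle 2 members were called, 4 with no filter on low counts, 0 with all 6 groups in one fit and 0 to 3 with a library left out. At 100 against 10 ng/mL the count of 9 with vehicle ran from 0 to 10, and that of 7 with thapsigargin from 0 to 10, with a library left out. At 10 against 0 ng/mL with thapsigargin it was 0, 2 by DESeq2, 5 with the replicate block and 0 with any library left out. Thapsigargin without doxycycline gave 8, 5 with all groups in one fit and 5 to 7 with a library left out. At 10 ng/mL it gave 3, 5 by DESeq2, with no filter or at an adjusted p of 0.05, 9 with the replicate block, and 0 to 4 with a library left out. At 100 ng/mL it gave 2, 7 by DESeq2 and with all groups in one fit, 5 with no filter, 6 at an adjusted p of 0.05, 0 with the replicate block, and 0 to 9 with a library left out. The block changed no member count other than these by over 1.5 times. Apart from the comparison of 10 with 0 ng/mL under thapsigargin, numbers were not taken to pair libraries. Between vehicle and thapsigargin, deviations of same-numbered libraries had a mean r of 0.287, 0.441 and -0.110 at 0, 10 and 100 ng/mL. Their own number fitted best in 2, 2 and 1 of 3. Whether libraries were paired there was not settled. Calls over all genes moved as well. With vehicle and a library left out, they ran from 0% to 18.8% of all genes at 10 against 0 ng/mL. At 100 against 10 ng/mL they ran from 0% to 3.37%. With vehicle, 10 against 0 ng/mL gave 28 (3 with all groups in one fit, 623 with no filter), 100 against 0 gave 1203 (750 with the block), and 100 against 10 gave 356 (1224 with the block). With thapsigargin they gave 0 (564 with the block), 1512 (2641 with all groups) and 805 (384 with the block, 2054 with all groups). Thapsigargin gave 1611, 212 and 29 at 0, 10 and 100 ng/mL (3571, 3620 and 4 with the block, and 941 at 100 ng/mL with all groups). The interaction at 100 ng/mL gave 6 (3 with the block, 341 by DESeq2) and that at 10 ng/mL 0 (3 by DESeq2). Of 1550 member fold changes under alternatives, 25 changed sign, and 0 of these were called in either fit. The causes were not tested. With 3 libraries per group, NID2 and HSPG2, which had the lowest counts, limit what can be seen.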
